A study of Mus musculus with 2 samples.

Results

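The genes described here are Tigit, Cd226, Cd96 and Pvr, 4 of the 15416 genes in the deposited matrix. They were taken by name and read in each subcluster of cells and each mouse. Cells carrying both CD45 and JAML on their surface had been sorted out of mouse tumours. CD45 marks white blood cells, and JAML is an adhesion receptor that can costimulate T cells. Cells of 3 mice were pooled after each mouse had been given its own antibody hashtag, and one 10x Genomics 5' gene expression library was made. The hashtag names give B16F10, a mouse melanoma line, and an isotype control antibody for all 3 mice. Every mouse therefore belonged to the same group, and the comparisons below are between kinds of cell within the same mice. Strain, age and sex were not given in the sources used here.

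Tigit and Cd96 lie on mouse chromosome 16 (GRCm38, the assembly also called mm10), Tigit at chr16:43648867-43664146 and Cd96 at chr16:46035657-46120251, both on the minus strand. Cd226 lies at chr18:89176967-89272229 on the plus strand. Pvr lies at chr7:19903578-19921160 on the minus strand, close to its relative Nectin2 at chr7:19716644-19750483. An antisense gene model and a pseudogene on the opposite strand overlap Pvr. The strand setting of the counting was not given in the sources used here, so reads of Pvr and of its antisense model cannot be told apart.

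TIGIT, CD226 and CD96 are immunoglobulin-superfamily receptors on T cells and natural killer (NK) cells that bind the same ligands. The main shared ligand is the poliovirus receptor, encoded by Pvr, and nectin-2, encoded by Nectin2, is also bound by CD226 and, in humans, by TIGIT. CD226 (also called DNAM-1) costimulates killing and cytokine release. TIGIT competes with it for the ligand, binds more tightly and carries an inhibitory cytoplasmic motif, and CD96 also competes for the ligand. In tumours TIGIT is known as one of the inhibitory receptors of exhausted CD8 T cells and of regulatory T cells, and antibodies against it have been tested as checkpoint blockers.

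RefSeq promoter sequences (GRCm38.p6, 250 bases before to 50 bases after the gene's start) were matched by symbol for 2 of the 4 genes, Tigit and Cd96. They are shown because both genes were read almost entirely in T and NK cells, as described below. Both are written 5′ to 3′ on the gene's strand, and capitals mark the core GGAA of ETS factors and the RUNX motif TGTGGT on either strand (TTCC and ACCACA on the other).
Tigit promoter, chr16:43664135-43664434, minus strand: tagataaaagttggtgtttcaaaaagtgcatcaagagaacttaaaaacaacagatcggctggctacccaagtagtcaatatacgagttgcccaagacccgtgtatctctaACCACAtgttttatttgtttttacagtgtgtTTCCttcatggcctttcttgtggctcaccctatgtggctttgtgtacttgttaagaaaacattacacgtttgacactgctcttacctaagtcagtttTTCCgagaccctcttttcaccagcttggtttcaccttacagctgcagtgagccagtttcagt
Cd96 promoter, chr16:46120199-46120498, minus strand: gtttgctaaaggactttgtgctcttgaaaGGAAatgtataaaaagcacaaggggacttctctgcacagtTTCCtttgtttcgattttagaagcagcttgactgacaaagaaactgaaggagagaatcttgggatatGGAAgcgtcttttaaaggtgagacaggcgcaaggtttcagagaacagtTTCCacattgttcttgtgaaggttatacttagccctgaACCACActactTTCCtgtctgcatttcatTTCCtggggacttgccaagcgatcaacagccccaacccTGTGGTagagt
The Tigit window held 2 ETS cores and 1 RUNX motif, and the Cd96 window held 6 ETS cores and 2 RUNX motifs. Of 32851 mouse promoters of the same length, 96.0% held an ETS core and 16.8% held the RUNX motif. The longer GGAAA, which contains the ETS core and is the core of NFAT sites, occurred 2 times in the Tigit window and 5 times in the Cd96 window, and at least once in 61.3% of all promoters. Neither window held TGANTCA (AP-1, in 7.81% of promoters), CTTTGA (TCF and LEF, in 16%) or GTGTGA (T-box, in 14.5%). A motif match is a match of letters and no measurement of binding.

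The matrix held counts of unique molecular identifiers (UMIs), each standing for 1 captured RNA molecule. It covered 5976 cells, of which 5968 carried the hashtag of a mouse (2445, 1184 and 2339 cells in mice 1, 2 and 3). Their UMI totals were 48047914, 22004939 and 33009303, with medians per cell of 16912, 15917 and 11648. By label the sorted population consists of T cells, and the protocol adds the word TREG. The data go against this for many cells, since 3174 cells fell into 8 of the authors' 16 subclusters with few T cell transcripts, called the non-T clusters here. By markers these were 2 plasmacytoid dendritic cell (pDC)-like subclusters (0 and 9), 1 macrophage-like (2), 1 type 2 and 2 type 1 conventional dendritic cell (cDC)-like (4, 6 and the dividing 11), 1 migratory dendritic cell-like (12) and subcluster 13, left unnamed, which the authors placed in their Siglech cluster and which met the cDC2 markers Cd209a, Clec10a and Irf4 and, of the pDC markers, only Tcf4. The T cell side held 7 subclusters taken here as CD8 T cells. Subclusters 1, 5, 7, 8, 14 and 15 met both CD8 markers, Cd8a and Cd8b1. Subcluster 10 met only Cd8b1, and of the 6 T cell markers only Cd3d, Trbc2 and Lat. Subclusters 5, 8 and 14 (853 cells) had high Pdcd1, Havcr2 and Tox and form the exhausted side, with 8 and 14 also high in Mki67, Ccnb2 and Birc5, genes of dividing cells. Subclusters 1, 7, 10 and 15 (1309 cells) form the memory side. Subcluster 10 met the memory markers Tcf7, Ccr7, Il7r, S1pr1 and Lef1. Of these, subcluster 7 met Tcf7, S1pr1 and Lef1, subcluster 1 met Tcf7 and Lef1, and subcluster 15 met Lef1. Subcluster 1 (785 cells) also met the exhaustion marker Tox. The 632 cells of subcluster 3 were NK-like by Ncr1, Klrb1c and Klre1, and also met 3 markers of gamma-delta T cells (Trdc, Tcrg-C2 and Tcrg-C4), the T cell markers Cd3d and Trbc2, and the memory markers Tcf7, Il7r, S1pr1 and Lef1. Only 0.316% of them had no UMI of the T cell receptor complex. That share was 41.6% in pDC-like subcluster 0 and 22.2% in cDC1-like subcluster 6, so such a UMI alone does not mark a T cell. The name NK-like is not taken to separate NK cells from T cells there. Mice contributed unequally, with 315, 92 and 39 cells of mice 1, 2 and 3 in subcluster 5 and 64, 124 and 597 in subcluster 1.

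Levels are given as CPM, the UMIs of a gene per 1000000 UMIs of all cells of a mouse in a subcluster, wherever that mouse had at least 10 such cells. Over all 5968 cells Tigit was thinly captured, with 371 UMIs in 305 cells. Cd226 had 4830 UMIs in 2049 cells, Cd96 had 2550 in 1444 and Pvr had 1323 in 1034. The precision of each level below follows from these numbers.

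Tigit, the inhibitory receptor, was highest in subcluster 5, the non-dividing exhausted CD8 cells. Its level there was 14.5, 12.8 and 15 CPM in mice 1, 2 and 3, and in the dividing exhausted subcluster 8 it was 11.9, 8.97 and 7.66 CPM. The small dividing exhausted subcluster 14 had 7.81 and 3.24 CPM in mice 1 and 3, from 11 UMIs and 1 UMI. Its mean of 5.52 CPM lay below those of memory-side subclusters 1 (8.71 CPM) and 15 (6.41 CPM). Subcluster 15 had 1 UMI in mouse 2 and 1 in mouse 3, with 95% counting intervals of 0.174 to 38.4 and 0.150 to 33.1 CPM. These counts do not settle the order of subclusters 14 and 15. Subclusters 5 and 8 did not overlap, and between them and the rest of the order neighbouring levels overlapped over mice down to the pDC-like subcluster 0. In subcluster 1 mouse 1 stood apart at 15.2 CPM, against 6.24 and 4.73 CPM in mice 2 and 3. That value rested on 9 UMIs in 64 cells and has a 95% counting interval of 6.94 to 28.8 CPM. The remaining memory-side subclusters had 0, 3.57 and 6.04 CPM (subcluster 7), 4.99, 0 and 1.15 CPM (subcluster 10), and 6.89 and 5.93 CPM in mice 2 and 3 (subcluster 15). In mice 1, 2 and 3 these rested on 0, 2 and 13 UMIs in subcluster 7 and on 3, 0 and 1 UMIs in subcluster 10. NK-like cells had 3.55, 3.19 and 2.62 CPM. In the non-T clusters the mean level was at most 1.95 CPM, in subcluster 9, and pDC-like subcluster 0 had 1.10, 1.06 and 1.34 CPM.

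Cd226, the activating receptor, was spread evenly over the T and NK-like cells with 1 exception. Its level was 128, 128 and 123 CPM in mice 1, 2 and 3 in subcluster 7, and 110, 136 and 117 CPM in subcluster 1. It was 108, 115 and 99 CPM in the dividing exhausted subcluster 8 and 89.6, 94.2 and 91.7 CPM in NK-like cells. These ranges ran into each other, and in subcluster 5 the level of mouse 3 (70.4 CPM, from 39 cells) lay under those of mice 1 and 2 (123 and 112 CPM). The memory-like subcluster 10 was the exception, at 48.2, 56.7 and 51.7 CPM, below every other T or NK-like subcluster in every mouse measured. The cDC1-like subcluster 6 came next with 20.8, 14.8 and 18.3 CPM, above the other non-T subclusters by mean level, and pDC-like cells had a mean of 1.07 CPM.

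Cd96 had the narrowest distribution of cell types. All 8 T and NK-like subclusters had mean levels between 44.0 CPM (subcluster 10) and 86.4 CPM (subcluster 14), and neighbouring levels overlapped throughout. Subcluster 5 had 62.6, 70.2 and 87.7 CPM in mice 1, 2 and 3, subcluster 1 had 65.7, 80.2 and 55.4 CPM, and NK-like cells had 61.5, 61.5 and 53.4 CPM. Below them came the migratory DC-like subcluster 12 with 4.17, 6.06 and 3.09 CPM, and all other non-T subclusters had mean levels of 1.85 CPM or less.

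**Figure D1:**
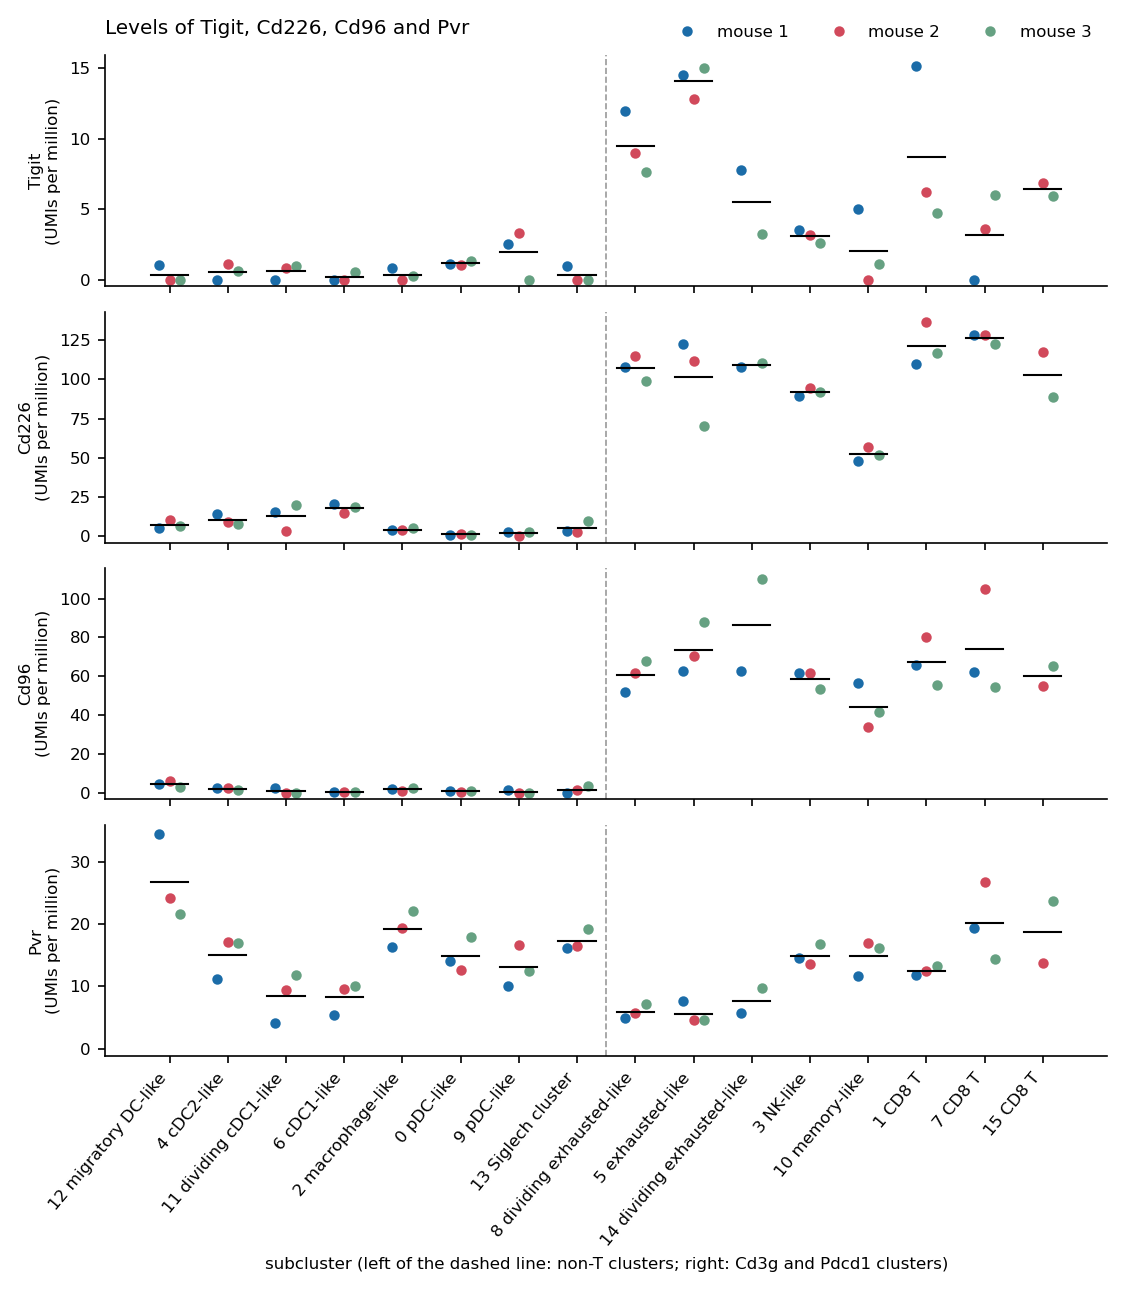
Levels of Tigit, Cd226, Cd96 and Pvr (y axes, CPM) in the 16 subclusters (x axis), with a dot for each mouse with at least 10 cells and a bar at the mean. The receptors stand right of the dashed line, in T and NK-like cells, with Cd226 dipping to 52.2 CPM in memory-like subcluster 10, while Pvr is lowest in the exhausted subclusters 5 and 8.

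Pvr, the shared ligand, followed another pattern and was found in nearly all kinds of cell. The migratory DC-like subcluster 12 had the highest mean, with 34.4, 24.2 and 21.6 CPM in mice 1, 2 and 3. Macrophage-like cells had 16.3, 19.3 and 22.1 CPM, and among T cells subcluster 7 had 19.4, 26.7 and 14.4 CPM. NK-like cells had 14.5, 13.6 and 16.8 CPM and pDC-like cells of subcluster 0 had 14.1, 12.7 and 17.9 CPM. The lowest levels were those of the exhausted CD8 cells, with 7.69, 4.71 and 4.62 CPM in subcluster 5 and 4.89, 5.77 and 7.14 CPM in subcluster 8, and the cDC1-like subcluster 6 (5.43, 9.53 and 10.0 CPM) overlapped with them.

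Exhausted CD8 cells had lower Pvr relative to total UMIs than memory-side CD8 cells, and no receptor passed the test. Each log2 difference averages the fitted log levels of the subclusters with equal weight. The CPM means beside it average CPM over the same subclusters, so the sizes can differ where a subcluster is very low. All comparisons of subclusters were made in 1 edgeR quasi-likelihood fit over 10951 genes. That fit had the mouse as a block and Benjamini-Hochberg adjustment. The subclusters were built from the same cells, so a p-value here does not test whether the groups are distinct. It sets a difference against the scatter left over the 46 sums of mouse and subcluster. Several of these sums come from the same mouse, so it does not measure spread over the 3 mice alone. Pvr averaged 6.16 ± 0.965 CPM in exhausted-side cells and 16.2 ± 1.70 CPM in memory-side cells (SD, n = 3 mice), lower in each mouse. The log2 difference was -1.28 ± 0.26 (SE; 95% interval -1.81 to -0.75; edgeR adjusted p = 0.00011), and over the alternatives it lay between -1.66 and -1.04 with adjusted p from 3.1e-06 to 0.025. In this comparison 40.2% of the genes tested passed the threshold of 0.05, so passing it does not set Pvr apart. Exhausted-side cells were deeper, with medians of 21106.5 UMIs in subcluster 5 and 27482 in subcluster 8, against 8550 in subcluster 1 and 8829 in subcluster 7. Per cell, at these unequal depths, Pvr had 0.154 UMIs in exhausted-side cells and 0.138 UMIs in memory-side cells. After thinning every cell to 7537 UMIs, 5.65% of exhausted-side and 9.82% of memory-side cells had a Pvr UMI. The part of UMI number per cell in the Pvr difference was not tested. Markers of macrophages (all 7 of the list measured, none at 0) summed to between 77.0 and 171 CPM in the exhausted side and between 124 and 224 CPM in the memory side. The part of such cells in the Pvr difference was not tested beyond removing T-cluster cells in which Cd79a, C1qa or Lyz2 reached 2 UMIs, which left the mean level in the exhausted side at 5.11 CPM. This cut did not scale with depth. It took 195 of 446 cells in subcluster 5, 146 of 327 in subcluster 8 and 38 of 80 in subcluster 14. In memory-side subclusters 1, 7, 10 and 15 it took 136 of 785, 73 of 351, 37 of 129 and 9 of 44 cells.

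Tigit averaged 10.3 ± 1.48 CPM in exhausted-side cells and 5.12 ± 1.39 CPM in memory-side cells (SD, n = 3), higher in each of the 3 mice. The log2 difference of 0.93 ± 0.44 (SE; 95% interval 0.03 to 1.82) did not pass (edgeR adjusted p = 0.097). Without the mouse block it was 1.07 with an edgeR adjusted p of 0.043, and over all alternatives the adjusted p ranged from 0.043 to 0.43. Cd226 averaged 106 ± 11.4 CPM in exhausted-side cells and 100.0 ± 8.32 CPM in memory-side cells, a log2 difference of 0.10 with a 95% interval of -0.17 to 0.37 (edgeR adjusted p = 0.63). Cd96 averaged 71.1 ± 15.5 CPM in exhausted-side cells and 61.4 ± 7.26 CPM in memory-side cells, a log2 difference of 0.19 with an interval of -0.13 to 0.52 (edgeR adjusted p = 0.38), and was higher in 1 of 3 mice.

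The share of cells in which these receptors were seen depended on depth. Before equalising depth, 22.5% of exhausted-side cells had a Tigit UMI, against 4.51% of memory-side cells. After every cell had been thinned to 7537 UMIs, with shallower cells left out, the shares were 7.42% in exhausted-side cells, 2.22% in NK-like cells and 3.27% in memory-side cells. The non-T clusters had Tigit UMIs in 0.448% of thinned cells and the pDC-like subcluster 0 in 0.758%. The 0.8% of memory-like subcluster 10 came from 1 of 125 cells (exact 95% interval 0.0203 to 4.38%) and was not distinguishable from these shares at this depth. For Cd226 the thinned shares were 50.5% in exhausted-side cells, 46.1% in NK-like cells and 48.9% in memory-side cells, against a background of 0.433% in subcluster 0. For Cd96 they were 38.4% in exhausted-side cells, 32.8% in NK-like cells and 35.0% in memory-side cells, with the same background of 0.433%. Unthinned, the Cd226 and Cd96 shares of exhausted-side cells were 79.4% and 72.1%, against 54.2% and 39.1% of memory-side cells. The thinned shares of Pvr were 5.65% in exhausted-side cells, 9.76% in NK-like cells and 9.82% in memory-side cells.

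**Figure D2:**
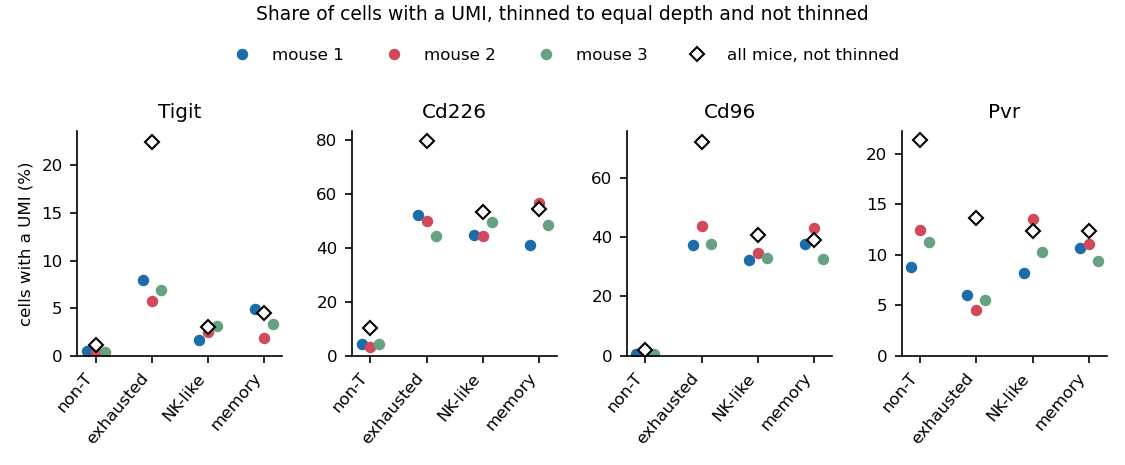
Percent of cells with a UMI of each gene (y axes) in 4 groups of cells (x axes); coloured dots are the mice after thinning every cell to 7537 UMIs and open diamonds are all mice together without thinning. The diamonds of the exhausted side lie far above its dots (Tigit 22.5% and 7.42%), and at equal depth the Cd226 and Cd96 shares of the 3 kinds of T and NK-like cells lie close together.

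NK-like cells did not differ past the threshold from memory-side CD8 cells in any of the 4 genes, in a comparison where 10.5% of genes passed. Cd226 averaged 91.8 ± 2.30 CPM in NK-like cells and 100.0 ± 8.32 CPM in memory-side cells (log2 difference -0.15 ± 0.16). Cd96 averaged 58.8 ± 4.65 CPM in NK-like cells and 61.4 ± 7.26 CPM in memory-side cells (log2 difference -0.07 ± 0.19). Tigit averaged 3.12 ± 0.469 CPM in NK-like cells and 5.12 ± 1.39 CPM in memory-side cells (log2 difference -0.69 ± 0.60), and Pvr differed by -0.10 ± 0.24. The edgeR adjusted p-values of the 4 genes lay at 0.56, 0.68, 0.91 and 0.95 for Tigit, Cd226, Cd96 and Pvr.

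Inside the exhausted side, the dividing subcluster 8 had the lower Tigit level in every mouse, 9.52 ± 2.20 CPM in subcluster 8 and 14.1 ± 1.14 CPM in subcluster 5 (SD, n = 3). The log2 difference of -0.48 ± 0.37 did not pass (edgeR adjusted p = 0.47). Cd96 was also lower in subcluster 8 in every mouse without passing (log2 difference -0.23 ± 0.19), and Cd226 (0.04 ± 0.17) and Pvr (-0.22 ± 0.29) had no common direction. Of all genes, 14.5% passed between these subclusters.

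Cd226 was lower in the memory-like subcluster 10, which met only Cd8b1 of the CD8 markers, than in subclusters 1 and 7 of its cluster. It averaged 52.2 ± 4.28 CPM in subcluster 10 and 124 ± 7.49 CPM in subclusters 1 and 7 (SD, n = 3), with 48.2, 56.7 and 51.7 CPM against 119, 132 and 119.9 CPM in mice 1, 2 and 3. The ranges were far apart. The log2 difference was -1.04 ± 0.21 (95% interval -1.47 to -0.61; edgeR adjusted p = 0.00055), and under the alternatives it stayed between -1.12 and -0.90 with adjusted p of 0.00032 to 0.014. Of all genes, 10.8% passed in this comparison. The T cell markers moved with it, since the 6 of the list summed to 4526, 5126 and 4636 CPM in subcluster 10 and to 6682, 7954 and 7733 CPM in subclusters 1 and 7 in mice 1, 2 and 3, with none at 0. Per Cd3e UMI, Cd226 had 0.141 UMIs in subcluster 10, against 0.169 in subcluster 1 and 0.188 in subcluster 7. The part of the T cell markers in the Cd226 difference was not tested. Tigit (-1.13 ± 0.83), Cd96 (-0.34 ± 0.24) and Pvr (0.23 ± 0.31) did not pass. Subcluster 10 had median UMIs per cell of 12526, between those of the exhausted side and of subclusters 1 and 7.

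**Figure D3:**
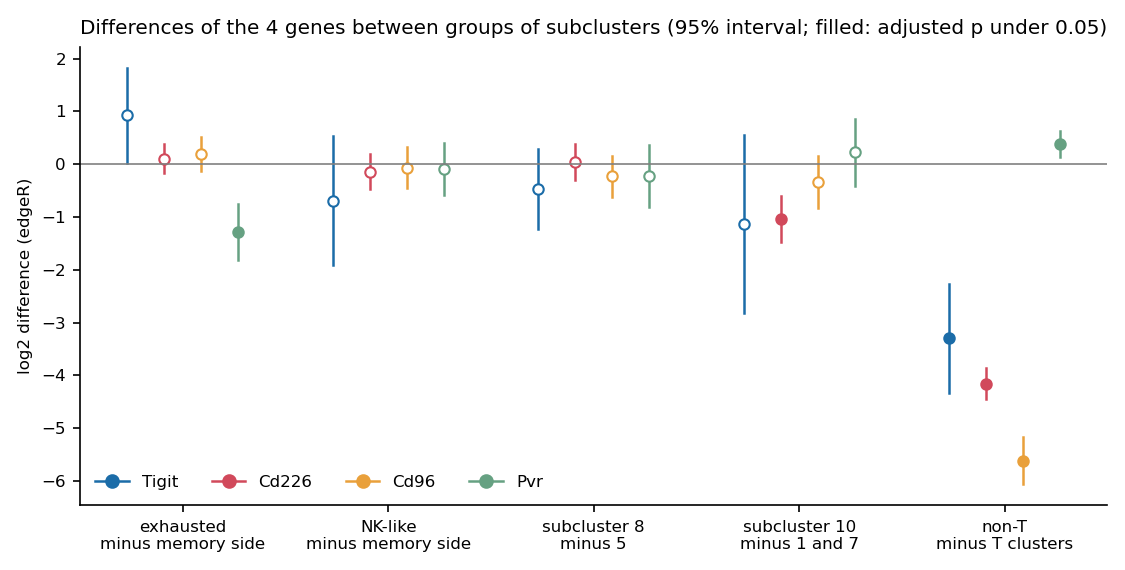
Log2 differences of the 4 genes (y axis) in the 5 comparisons of subcluster groups (x axis), as edgeR estimates with 95% intervals; filled points passed an adjusted p of 0.05. Among comparisons inside the T and NK-like cells, only Pvr between the exhausted and memory sides (-1.28) and Cd226 in subcluster 10 (-1.04) are filled.

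The receptors were lower and Pvr was slightly higher in the non-T clusters than in the T clusters (here with the NK-like subcluster), a comparison in which 64% of genes passed. The log2 differences, non-T minus T, were -3.30 ± 0.51 for Tigit, -4.16 ± 0.14 for Cd226 and -5.62 ± 0.22 for Cd96, all past the threshold in edgeR with adjusted p of 3.8e-07 or less. Pvr averaged 15.4 ± 1.30 CPM in non-T clusters and 12.5 ± 1.46 CPM in T clusters, higher in 3 of 3 mice, with a log2 difference of 0.38 ± 0.12 (edgeR adjusted p = 0.0070). This call was lost without mouse 2 (0.33, edgeR adjusted p = 0.079), without mouse 3 (0.36, edgeR adjusted p = 0.11) and in thinned cells (0.34, edgeR adjusted p = 0.11).

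Cd226 UMIs in the cDC1-like cells did not come in the proportions found in T cells. After thinning, 14.7% of subcluster 6 cells had a Cd226 UMI (exact 95% interval 11.3 to 18.8%), while 5.72% had one of Cd3e, a subunit of the T cell receptor complex, and 7.08% one of Trac, the T cell receptor alpha constant gene. In pDC-like subcluster 0 the order was the opposite, with 0.433% for Cd226, 3.03% for Cd3e and 5.42% for Trac. Subcluster 6 had 1.65 Cd226 UMIs per Cd3e UMI, and the dividing cDC1-like subcluster 11 had 1.2, while T and NK-like subclusters lay between 0.141 and 0.276. Likewise Cd226 UMIs were 46.8 times those of Cd96 in subcluster 6 and 10.8 times in subcluster 11, against 1.15 to 1.98 times in T and NK-like subclusters. The cDC2-like subcluster 4 lay between, at 0.514 per Cd3e UMI and 5.88 per Cd96 UMI. Of the 119 subcluster 6 cells with a Cd226 UMI, 23 (19.3%) had no UMI of the T cell receptor complex, close to the 22.2% of all subcluster 6 cells. Counts of Cd3e and Cd96 in subcluster 6 were low, at 113 and 4 UMIs.

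The related ligands were read in dendritic cells and macrophages. Of the list of nectin and nectin-like ligands and partners, 6 of 7 genes had a row in the matrix (Nectin3 was not analysed here). Between non-T and T clusters, 4 of these 6 rose and 2 fell (of all genes 33.6% rose and 30.5% fell), with a median log2 difference of 4.5, against 0.02 over all genes tested. Nectin2, the gene of the ligand nectin-2, averaged 6.64 ± 1.26 CPM in non-T clusters and 0.287 ± 0.0907 CPM in T clusters (log2 difference 4.0 ± 0.46; edgeR adjusted p = 6.7e-10). It was highest in migratory DC-like subcluster 12, with 25, 20.2 and 18.5 CPM in mice 1, 2 and 3, where Pvr was highest too. Nectin1, an adhesion molecule, was also highest there, at 56.3, 38.4 and 48.4 CPM, followed by the cDC2-like subcluster 4 at 37.8, 21.2 and 31.8 CPM. Nectin4, reported as a ligand of human TIGIT, averaged 16.5 ± 0.632 CPM in non-T clusters and 0.203 ± 0.140 CPM in T clusters and was highest in pDC-like subcluster 0 (39.3, 41.8 and 42.6 CPM). Cadm1, a nectin-like adhesion molecule that binds CRTAM, was highest in cDC1-like subcluster 6 (102, 65.7 and 49.4 CPM). The 2 genes that fell were Crtam and Pvrig, receptors of T and NK cells for CADM1 and for nectin-2, and the call of Pvrig was lost without mouse 1 or mouse 3 (edgeR adjusted p = 1.0 each).

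**Figure D4:**
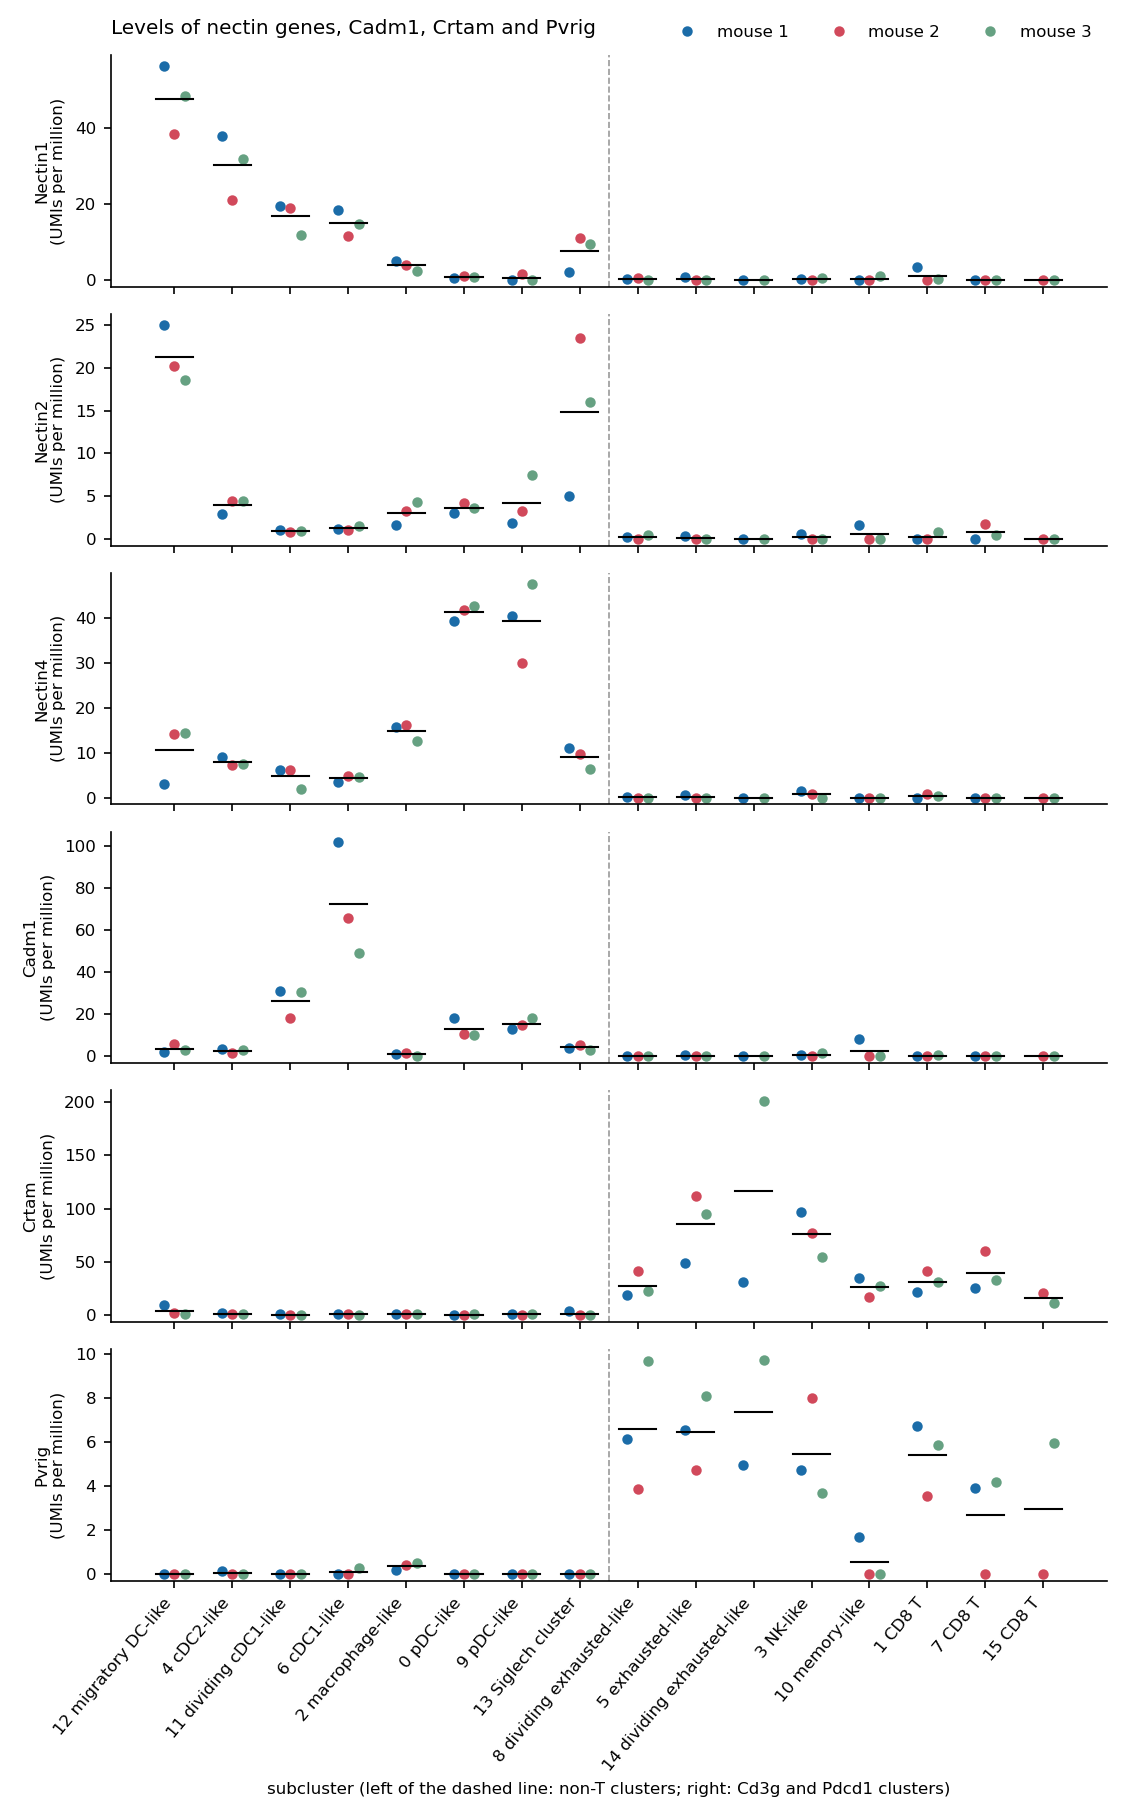
Levels of Nectin1, Nectin2, Nectin4, Cadm1, Crtam and Pvrig (y axes, CPM) in the 16 subclusters (x axis), with a dot for each mouse and a bar at the mean. Nectin1 and Nectin2 have their highest means in migratory DC-like subcluster 12, where Nectin2 overlaps with subcluster 13. Nectin4 peaks in the pDC-like subclusters 0 and 9 and Cadm1 in cDC1-like subcluster 6, while Crtam and Pvrig stand right of the dashed line, in T and NK-like cells.

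Crtam and Pvrig also differed among T cells. Crtam averaged 71.9 ± 36.8 CPM in exhausted-side cells and 29.4 ± 4.93 CPM in memory-side cells (log2 difference 1.08 ± 0.31; edgeR adjusted p = 0.0041), but the call was lost without mouse 3 (0.52, edgeR adjusted p = 0.34) and without mouse 2 (1.07, edgeR adjusted p = 0.081), after removal of the cells with conflicting markers (0.85, edgeR adjusted p = 0.091) and with at least 20 cells per sum (0.59, edgeR adjusted p = 0.25). It also rose in NK-like cells, to 76.3 ± 21.3 CPM, against 29.4 ± 4.93 CPM in memory-side cells (log2 difference 1.55 ± 0.33; edgeR adjusted p = 0.00095), and lost that call in DESeq2 (1.40, DESeq2 adjusted p = 0.058). Within the exhausted side it fell in dividing subcluster 8, with 18.8, 41.0 and 23.0 CPM in subcluster 8 and 49.1, 112 and 94.7 CPM in subcluster 5 in mice 1, 2 and 3 (log2 difference -1.59 ± 0.32; edgeR adjusted p = 0.00028). Pvrig averaged 6.44 ± 2.49 CPM in exhausted-side cells and 2.99 ± 1.82 CPM in memory-side cells (log2 difference 1.41 ± 0.49; edgeR adjusted p = 0.022), and this call was lost whichever mouse was left out (edgeR adjusted p between 0.061 and 0.18) and without the cells with conflicting markers (0.87, edgeR adjusted p = 0.34).

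Of 11 other inhibitory receptors, 7 rose and 1 fell in exhausted-side cells (of all genes 24.1% and 16.1%), with a median log2 difference of 1.25, against 0.12 over all genes. Pdcd1, Havcr2, Lag3 and Entpd1 of this list are among the markers by which subclusters were named. So are Lat of the signalling genes below and Tox, Tcf7 and Eomes of the transcription factors. In comparisons of subclusters, their values and their part in the counts only describe the naming. Havcr2 (TIM-3) averaged 76.3 ± 20.9 CPM in exhausted-side cells and 8.89 ± 10.6 CPM in memory-side cells, and Pdcd1 (PD-1) 262 ± 41.0 CPM in exhausted-side and 76.8 ± 13.8 CPM in memory-side cells. Lag3 averaged 249 ± 52.3 CPM in exhausted-side cells and 101 ± 12.3 CPM in memory-side cells. Cd244, a receptor of the SLAM family, averaged 33.8 ± 10.8 CPM in exhausted-side cells and 9.96 ± 6.56 CPM in memory-side cells. Its log2 difference of 3.51 ± 0.50, averaged over subclusters on the log scale, was larger than these means give. Klrc1, encoding the inhibitory receptor NKG2A, rose by 1.17 ± 0.19 log2 units. In subcluster 8, 4 of the 11 fell relative to subcluster 5 and none rose (of all genes 4.75% fell and 9.77% rose), among them Lag3 (log2 difference -1.0 ± 0.20) and Pdcd1 (-0.85 ± 0.23). The Pdcd1 call was lost in DESeq2 (-0.90, DESeq2 adjusted p = 0.18), and without mouse 3 its difference was -0.55. The call of Havcr2 was lost without mouse 2 (edgeR adjusted p = 0.18), without mouse 3 (edgeR adjusted p = 0.066), in thinned cells, without the mouse block and in DESeq2 (DESeq2 adjusted p = 0.33). In subcluster 10, Btla rose (1.02 ± 0.33), and Ctla4, Lag3, Klrc1 and Pdcd1 fell relative to subclusters 1 and 7, by log2 differences of -1.40 to -1.76 (of all genes 5.7% rose and 5.13% fell). The Btla call was lost whichever mouse was left out (edgeR adjusted p of 0.12 to 0.25), and those of Klrc1 and Pdcd1 without mouse 3 (edgeR adjusted p = 0.12 and edgeR adjusted p = 0.091). In NK-like cells 3 rose and 3 fell relative to memory-side cells (of all genes 6.56% and 3.93%), with Cd244 higher (4.03 ± 0.46) and Pdcd1 lower (-2.81 ± 0.36). The Cd244 means there were 47.7 ± 11.8 CPM in NK-like cells and 9.96 ± 6.56 CPM in memory-side cells, again a smaller difference than the log2 value.

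Of 16 genes of CD226 and TIGIT signalling, 3 rose and 7 fell in exhausted-side relative to memory-side cells (of all genes 24.1% and 16.1%), with a median log2 difference of -0.33, against 0.12 over all genes. Fyn, a Src-family kinase that phosphorylates both receptors, averaged 125 ± 21.9 CPM in exhausted-side cells and 198 ± 17.9 CPM in memory-side cells (log2 difference -0.74 ± 0.10; edgeR adjusted p = 3.2e-08). Prkcq, a protein kinase C of T cell activation, averaged 63.8 ± 11.4 CPM in exhausted-side cells and 130 ± 13.4 CPM in memory-side cells (-1.06 ± 0.16). Inpp5d, encoding the phosphatase SHIP1 that TIGIT recruits, averaged 28.7 ± 5.01 CPM in exhausted-side cells and 53.7 ± 9.55 CPM in memory-side cells (-0.91 ± 0.15), and lost its call in thinned cells (-0.65, edgeR adjusted p = 0.061). Itgb2, the beta chain of the integrin LFA-1 with which CD226 associates, rose (0.48 ± 0.08), as did Ptpn11, encoding the phosphatase SHP2 (0.72 ± 0.15). In subcluster 10, where Cd226 was low, 5 of the 16 fell and none rose relative to subclusters 1 and 7 (of all genes 5.13% fell and 5.7% rose). The alpha chain of LFA-1, Itgal, averaged 88.2 ± 6.02 CPM in subcluster 10 and 199.7 ± 3.87 CPM in subclusters 1 and 7 (-0.95 ± 0.15; edgeR adjusted p = 1.6e-05), and Itgb2 fell with it (-0.61 ± 0.12). Without mouse 3 the calls of Itgb2, Fyn and Inpp5d were lost in that comparison (edgeR adjusted p = 0.064, edgeR adjusted p = 0.15 and edgeR adjusted p = 0.25), and those of Fyn and Inpp5d also without mouse 2 (edgeR adjusted p = 0.11 and edgeR adjusted p = 0.053). NK-like cells had 1 of the 16 higher and 3 lower relative to memory-side cells (of all genes 6.56% and 3.93%). Among the lower was Lat, a T cell adaptor and naming marker, at 118 ± 16.2 CPM in NK-like cells and 342 ± 56.5 CPM in memory-side cells.

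Among 9 transcription factors tied to these receptors, 5 rose and 1 fell in exhausted-side relative to memory-side cells, with a median log2 difference of 0.66 (of all genes 24.1% and 16.1%, with a median of 0.12). Tox, a regulator of exhaustion, differed by 1.19 ± 0.16 and Prdm1, encoding BLIMP-1, by 1.56 ± 0.33. Tcf7, which maintains memory and precursor cells, averaged 40.9 ± 35.5 CPM in exhausted-side cells and 187 ± 52.9 CPM in memory-side cells. In subcluster 10, 3 rose and 3 fell relative to subclusters 1 and 7 (of all genes 5.7% and 5.13%). Eomes, a T-box factor of memory and NK cells and a naming marker, averaged 68.5 ± 27.0 CPM in subcluster 10 and 22.3 ± 8.98 CPM in subclusters 1 and 7 (log2 difference 1.72 ± 0.27; edgeR adjusted p = 9.4e-06). The naming marker Tox also differed (-1.84 ± 0.29).

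The balance of inhibitory and activating receptor can be read within each group as the share of Tigit among the UMIs of Tigit and Cd226 together. It was 9.56% in exhausted-side cells (exact 95% interval 8.46 to 10.7%), 3.40% in NK-like cells (2.12 to 5.16%) and 4.32% in memory-side cells (3.33 to 5.50%). By mouse it was 10.0, 8.32 and 9.12% in exhausted-side cells and 6.63, 3.68 and 4.07% in memory-side cells, and the mice of these sides did not overlap. Single subclusters did not all follow their side. The share was 10.9% in exhausted subcluster 5 and 8.94% in subcluster 8, but 4.94% in subcluster 14 (2.58 to 8.47%; 6.75 and 2.86% in mice 1 and 3). In memory-side subcluster 1 it was 4.67%, with mouse 1 at 12.2%. These are ratios within a group, so depth per cell does not enter them, and their intervals cover counting error only. The share of Cd96 among the UMIs of Cd96 and Cd226 was 36.1% in exhausted-side cells, 39.4% in NK-like cells and 35.1% in memory-side cells. By mouse it was 33.6, 37.3 and 45.7% in exhausted-side cells and 40.9, 39.2 and 32.6% in memory-side cells, which overlap. Subcluster 10 had the share 46.6% (39.1 to 54.2%).

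Cd226 and Cd96 were found in the same thinned cells about as often as their separate shares would give. For each pair the count of cells with UMIs of 2 receptors is divided by the number from the product of the single shares. For Cd226 and Cd96 the ratio was 0.990 ± 0.065 in exhausted-side cells (169 cells observed, 165 from the product), 1.11 ± 0.086 in NK-like cells and 1.06 ± 0.036 in memory-side cells (SD, n = 3 mice). For Tigit and Cd226 it was 1.12 ± 0.0764 in exhausted-side cells (37 cells and 32.2 from the product) and 0.568 ± 0.18 in memory-side cells (10 cells and 15 from the product). The memory-side ratio was under 1 in every mouse (0.385, 0.572 and 0.748), but it rests on 10 cells and was 0.865 without thinning. Ratios of Tigit with Cd96 were 1.35 ± 0.30 in exhausted-side cells, 0.512 in NK-like cells (2 cells) and 1.38 ± 0.72 in memory-side cells. No test was made, because cells of a mouse are not replicates and 3 mice cannot give an exact paired permutation p below 0.25.

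**Figure D5:**
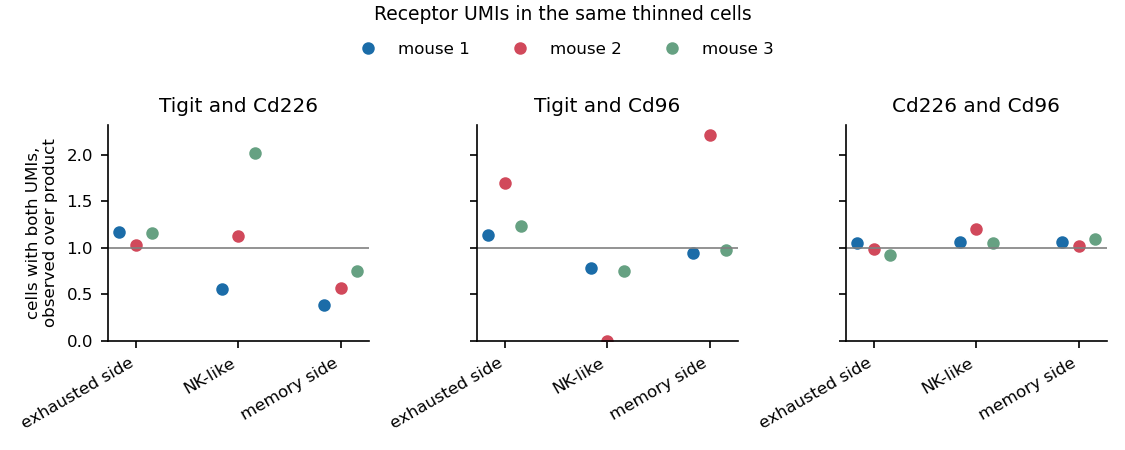
Cells with UMIs of both receptors divided by the number expected from the product of the single shares (y axes), for 3 pairs of receptors in 3 groups of cells (x axes), with a dot for each mouse after thinning. Cd226 and Cd96 stay near 1 in every mouse, and the pairs with Tigit, which few cells carry, scatter widely.

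Cells with a UMI of 1 receptor were next set against the same number of cells without it, drawn within the same mouse and CD8 subcluster and, there, within the same 1 of 5 bins of UMI total. With and without Tigit (250 cells each), Cd226 averaged 112 ± 22.8 and 95.3 ± 19.9 CPM and Cd96 73.1 ± 8.29 and 62.3 ± 5.04 CPM, both higher with Tigit in each of the 3 mice. Neither passed (log2 differences 0.19 ± 0.13 and 0.20 ± 0.14; edgeR adjusted p = 0.94 and 0.95), in a comparison where 12 of 7223 genes did (0.166%), 11 higher (0.152%) and 1 lower (0.0138%). With and without Cd226 (721 cells each), Cd96 averaged 70.1 ± 14.1 and 56.5 ± 2.45 CPM, again higher in 3 of 3 mice without passing (0.25 ± 0.11; edgeR adjusted p = 0.69), and 11 of 9359 genes passed (0.118%), 6 higher (0.0641%) and 5 lower (0.0534%). With and without Cd96 (690 cells each), Cd226 averaged 127 ± 9.18 and 108 ± 5.01 CPM (0.23 ± 0.07; edgeR adjusted p = 0.38) and Pvr 8.89 ± 0.860 and 12.7 ± 3.02 CPM, which was lower in 3 of 3 mice (-0.44 ± 0.22; edgeR adjusted p = 0.80). In that comparison 28 of 9698 genes passed (0.289%), 14 in each direction (0.144%).

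Genes that did pass were few, and several rested on few cells. Without the mouse block no gene passed in the 3 comparisons in edgeR (157, 98 and 99 genes had an unadjusted p under 0.05), and DESeq2 called 3, 3 and 7. In cells with Tigit, Csf2, encoding the cytokine GM-CSF, rose by 1.97 ± 0.23 log2 units (59.1 ± 22.8 CPM with and 12 ± 5.29 CPM without; edgeR adjusted p = 0.0010). Yet 3 cells held 38.8% of its UMIs, 16% of cells with and 14% without Tigit had any, and the call was lost in another draw of cells (edgeR adjusted p = 0.18). Cx3cr1, a chemokine receptor of effector cells, rose by 0.95 ± 0.16 (51.6 ± 19.4 CPM with and 27.2 ± 11.6 CPM without; in 45.2% and 36.8% of cells), but the call was lost without mouse 1 (edgeR adjusted p = 0.24), without mouse 2 (edgeR adjusted p = 0.23) and in another draw (0.34, edgeR adjusted p = 0.96). In cells with Cd226, the factor gene Eomes fell, with 25.1 ± 3.01 CPM in cells with and 44.8 ± 1.65 CPM in cells without (log2 difference -0.79 ± 0.13; edgeR adjusted p = 0.010; in 19.4% and 28.2% of cells). The call held whichever mouse was left out (-0.85 to -0.73), in another draw (-0.69, edgeR adjusted p = 0.045) and for cells with at least 2 Cd226 UMIs (-1.12, edgeR adjusted p = 0.003). It was lost without the mouse block and in DESeq2 (both adjusted p = 1.0) and without matching (-0.71, edgeR adjusted p = 0.15). Rora, encoding a nuclear receptor, rose in cells with Cd226 (0.70 ± 0.13; 61.6 ± 18.9 CPM with and 38.4 ± 18.8 CPM without). Its difference lay between 0.26 and 0.95 under the alternatives, and its call was lost without the mouse block, in DESeq2 (both adjusted p = 1.0) and without matching (0.26, edgeR adjusted p = 0.53). Gzma fell (-1.04 ± 0.16), with 48.7% of its UMIs in cells without Cd226 held by 3 cells, and lost its call under the same 3 alternatives.

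In cells with Cd96, Crtam fell, with 28.7 ± 3.73 CPM in cells with and 57.3 ± 22.7 CPM in cells without (log2 difference -0.89 ± 0.15; edgeR adjusted p = 0.0098), although the shares of cells with a Crtam UMI were 26.5% and 28.7%. That call was lost without mouse 1 (-0.86, edgeR adjusted p = 0.20) and in another draw (-0.65, edgeR adjusted p = 0.42). The granzyme gene Gzmf rose (3.07 ± 0.20) with 62.0% of its UMIs in 3 cells, and lost its call in another draw (edgeR adjusted p = 0.13). Lyz2, a lysozyme gene of macrophages, fell in cells with Cd96 (-0.99 ± 0.12; 71.9 ± 14.6 CPM with and 145 ± 76.7 CPM without), and without mouse 3 by -0.66. In cells without Cd96, 3 cells held 46.9% of the Lyz2 UMIs, and 60.3% of cells with and 59.7% of cells without Cd96 had any. The chemokine gene Cxcl10 also fell (-1.27 ± 0.22), with 55.6% of its UMIs in cells without Cd96 held by 3 cells, and lost its call without mouse 1 (edgeR adjusted p = 0.41), in another draw (edgeR adjusted p = 0.32), without the mouse block and in DESeq2. The Lyz2 call was lost without the mouse block. The 7 macrophage and monocyte markers summed to 82.8, 77.7 and 111 CPM in cells with Cd96 and to 172, 119 and 271 CPM in cells without it in mice 1, 2 and 3, with none of the 7 at 0. For Cd226 the same sums were 102, 100.3 and 107 CPM with and 149, 121 and 205 CPM without. Their part in the genes that passed was not tested. Of the lists above, the only other member past the threshold in these 3 comparisons was Eomes.

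Few cells of the T clusters passed a gate for the CD4 lineage. The gate required Cd4 and Cd3 transcripts without Cd8a or Cd8b1 and was chosen with results of these data known. It took 59 cells of the T clusters, against 2147 in the corresponding CD8 gate. A cell without a Cd4 UMI is not shown to lack that lineage. Cd4 was also a marker met by pDC-like subclusters 0 and 9, and the source of Cd4 UMIs in the gated cells was not tested. The CD4-gate cells held 1 Tigit UMI, and Foxp3, the factor of regulatory T cells, was not analysed here. Their Cd226 level was 176 CPM (95% counting interval 143 to 215; mice at 149, 109 and 275 CPM), against 108 CPM in CD8-gate cells (mice at 109, 118 and 103 CPM), and the mice overlapped. Cd96 had 69.7 CPM in CD4-gate cells and 62.1 CPM in CD8-gate cells, within the counting interval of 49.3 to 95.6 CPM.

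Over the 46 sums of mouse and subcluster, Cd226 and Cd96 had the most similar patterns among the 4 genes, with a Pearson r of log2(CPM + 1) of 0.911, and 0.474 over the 22 sums of the T clusters alone. Tigit correlated with Cd96 at 0.715 and with Cd226 at 0.623, and with Pvr at -0.418, and over the T cluster sums at -0.657 with Pvr. The sums share mice, depth and library, and these values are a description. Among genes with a mean of at least 10 CPM, the ones most like Cd96 over all sums were Trbc2 (0.974), the T cell receptor beta constant gene, and Zap70 (0.971), its proximal kinase. Camk4 (0.940) and Zap70 (0.939) were most like Cd226, Ndfip2 (0.833) and Gfi1 (0.808) most like Tigit, and Lamp1 (0.728) and Ube2d1 (0.723) most like Pvr. Over the T cluster sums Pvr was most like Peli1 (0.930), Dgka (0.908) and Kdm7a (0.907), Tigit like Ndufaf3 (0.856), Cd226 like Lrp10 (0.897) and Cd96 like Tbce (0.818).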

How the data were processed

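Tumour cells were sorted and sequenced with the v2 chemistry of 10x Genomics for the 5' end, per the labels. Cell Ranger 3.1.0, mm10 and Seurat 3.1.5 are named in the submitters' processing notes. The authors deposited UMI counts per gene and cell, not normalized, and an annotation with totals (counts), the percent of mitochondrial UMIs (deposited values at or under 5), hashtags, 6 clusters and 16 subclusters at resolution 0.8. Its species column reads Human, although the genes are mouse genes. Cell filters, doublet removal and strand setting were not given in the sources used here, and no doublet caller was run. Of the hashtag table only the names were used.

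Counts were summed per mouse and subcluster (46 sums, at least 10 cells) and fitted with edgeR 4.0.16 in R 4.3.3 (TMM, filterByExpr, quasi-likelihood, mouse as block, since each mouse gives cells to every side of a comparison). In Python 3.11.15, cells were thinned to 7537 UMIs, the 10th percentile (5373 cells kept, 595 left out), and counting intervals are exact Poisson or Clopper-Pearson. A count model was tested on simulated data first. Subclusters were named from markers with at least 2-fold levels over other cells and UMIs in at least 25% of cells. The hashtags are taken as separate mice from the series' design (n = 3).

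Named genes in the with and without comparisons are up to 5 per direction with the largest change among those past 0.05, at 30 CPM or more in the higher class and of 1 direction in every mouse, from which the printed ones were picked. The 4 genes and the gene lists were chosen with earlier results of these data known. Alternatives were RLE size factors, no low-count filter, DESeq2 1.42.0, no mouse block, each mouse left out, at least 20 cells per sum, thinned cells, removal of 771 cells with conflicting markers and, for the matched cells, another draw, no matching and a gate at 2 UMIs.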

Additional observations from a re-analysis of the deposited data

How the results depend on the processing

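Of the changes of setting for the 4 genes, their levels in the groups and the gene counts, 393 left the result the same. Of those for named genes and for levels of the 4 genes in single subclusters, 1091 did. For a log2 difference, the same means an unchanged direction and call. For a level it means a move under 1 SD, and for a gene count a similar number. In 143 cases a named gene lost its call. The mouse block pairs cells of the same mouse. Without it Tigit between exhausted and memory sides reached 1.07, and 0, 0 and 0 genes passed in the with and without comparisons in edgeR (157, 98 and 99 genes at an unadjusted p under 0.05 for Tigit, Cd226 and Cd96). It changed no call of the other 3 genes. DESeq2 called 3, 3 and 7 genes there, no filter on low counts 91, 104 and 94, no matching 138, 3 and 555, another draw 3 for Tigit and 6 for Cd96, a gate at 2 UMIs 21 for Cd226, and leaving out a mouse 2 to 66, 28 to 90 and 18 to 83.

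Thinned cells gave 2692 genes between exhausted and memory sides (4405 unthinned), 733 between NK-like cells and memory side (1148) and 739 for subcluster 10 (1186). Leaving out a mouse gave 443 to 875 genes for NK-like cells, 999 to 1301 for subcluster 8 against 5 (1590), and 423 to 833 for subcluster 10. The Pvr difference of non-T and T clusters was 0.34 thinned and 0.33 to 0.44 without a mouse.

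Log2 differences that changed sign were all without a call in the 4 genes. For exhausted against memory side, Cd226 ranged from -0.0031 to 0.15 and Cd96 from -0.050 to 0.41 with a mouse left out. Cd226 was 0.051 in thinned NK-like cells and, for subcluster 8, -0.076 to 0.086 without a mouse and -0.084 thinned. Pvr was -0.37 to 0.36 for subcluster 8 and -0.070 to 0.30 for subcluster 10 without a mouse, and Cd96 0.030 in thinned subcluster 10. Without matching, Cd226 was -0.021 with Tigit, and with Cd226 Tigit was 0.053 and Pvr -0.31, which spanned -0.18 to 0.48 without a mouse. Tigit with Cd96 spanned -0.011 to 0.22. The named genes that turned were Nrn1 with Tigit (-0.59 at 2 UMIs) and, without matching, Mif with Tigit (0.10) and Xcl1 with Cd96 (0.13).

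Levels that moved by more than 1 SD were Cd226 in NK-like cells (97.5 CPM thinned, 89.4 without conflicting cells), Cd96 in non-T clusters (0.811 thinned), and Pvr in exhausted-side cells (7.34 thinned, 5.11 without conflicting cells) and NK-like cells (17.6 thinned). Unthinned co-detection ratios were 1.13 for Tigit with Cd96 in NK-like cells and 0.865 for Tigit with Cd226 in the memory side. The cause of these changes was not tested. With 371 UMIs, Tigit limits every statement about it.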
